A study of Mus musculus with 11 samples.

Results

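The 44 genes described here encode protein components of the cytosolic ribosome. They were found by symbol: 48 genes on the array have a name of the form Rpl or Rps followed by a number, or Rplp0 to Rplp2, on at least 1 probe set that carries no other gene, and 44 of them had a mean normalised intensity above the 40th percentile of all values (7.81). They are 24 genes of the large subunit and 20 of the small subunit, out of 12428 genes that passed the same filter. The brightest probe set stands for each gene, where a probe set is a group of short probes whose signals are combined into 1 value. For 15 of the 44 genes its ID ends in _x_at or _s_at, types that can also match other transcripts although the annotation gives them 1 gene, and so do 42 of the 93 probe sets that passed for these genes. The lowest gene inside the threshold was Rpl27a at a mean of 175, and just outside it were Rpl39l at 6.26, Rps16 at -2.37, Rpl3l at -7.67 and Rps4l at -40.0.

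The RNA came from 3T3-L1 cells, an established mouse line of fibroblast-like preadipocytes that can be turned into fat cells in culture. Cultures had received the conjugated linoleic acid isomer t10c12 CLA, or LA as the control, for 4, 8 or 12 h, and each RNA was hybridised to a 1-colour Affymetrix array. The 11 arrays are 2 of CLA and 1 of LA at 4 h, and 2 of each at 8 h and at 12 h. The labels call replicates biological without saying how the cultures were separated, and give no dose, so p-values measure the spread between these arrays.

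A ribosome joins a small subunit, which reads the messenger RNA, to a large subunit, which links amino acids into protein. Each subunit holds ribosomal RNA and many different proteins. Ribosomal protein mRNAs are among the most abundant in growing cells, and most begin with a run of pyrimidines called a terminal oligopyrimidine tract, through which the kinase mTORC1 controls how much they are translated. Because the genes are long known for steady mRNA levels, some of them (Rplp0, Rpl13a) are widely used as references in PCR.

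Limits of the arrays touch several results. All 10 preadipocyte and fibroblast markers passed the filter, while 4 of 10 fat cell markers did, with Adipoq, Cidec and Retn at background. The summed markers of fat cells ranged from 350 to 645 on CLA arrays and from 337 to 522 on LA arrays. The summed macrophage markers, of which 5 of 8 passed and Ptprc, Itgam and Tyrobp were at background, ranged from 562 to 818 on CLA arrays and from 681 to 1733 on LA arrays. The highest sum came from 1 gene on the single LA array of 4 h: Csf1r read 168 and 109 on the CLA arrays of 4 h and 1171 on that array, a log2 difference of -3.10 (adjusted p 0.00715 in limma). That array is the whole LA side at 4 h, and its part in the 4 h differences was not tested. Endothelial markers summed to at most 30.3 on CLA arrays and 35.3 on LA arrays, and muscle markers to at most 142 on CLA arrays and 140.1 on LA arrays. The 3′ to 5′ signal ratio of GAPDH, a measure of RNA integrity in which higher values mean less signal from the 5′ end, was 0.888 and 0.928 on CLA arrays against 1.08 on the LA array at 4 h. At 8 h it was 0.893 and 1.01 on CLA arrays against 1.01 and 1.02 on LA arrays, and at 12 h it was 0.884 and 0.954 on CLA arrays against 0.983 and 1.18 on LA arrays. It was thus higher on LA arrays at each time, and its part in the differences below was not tested.

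In the 300 bases around the annotated transcription starts (250 before, 50 after, from RefSeq, build GRCm38.p6), 39 of the 44 genes had a matching window. A tract was counted where an unbroken run of C and T on the coding strand, at least 8 bases long, began with C within 15 bases of the start. 20 of 39 genes (51.3%) had such a run, against 12.9% of the 27025 genes with a window. The motif CCGGAAG on either strand, anywhere in the window, was present in 19 of the 39 genes (48.7%), against 9.93% of all genes. These are letters in the reference, not measured transcript starts. The 30 bases centred on the start are shown for 4 genes whose level differed between LA times in the test below, and for 4 bright genes with a run (Rpl35, Rps10, Rps18 and Rplp2) whose log2 ranges over the arrays were 0.09, 0.06, 0.13 and 0.15, with the run in capitals:
Rps6: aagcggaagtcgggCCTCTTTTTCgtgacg
Rpl14: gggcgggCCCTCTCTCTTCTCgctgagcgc
Rpl7l1: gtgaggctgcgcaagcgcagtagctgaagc
Rps3a1: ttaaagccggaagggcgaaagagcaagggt
Rpl35: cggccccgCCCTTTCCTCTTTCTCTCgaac
Rps10: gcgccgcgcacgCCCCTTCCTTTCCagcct
Rps18: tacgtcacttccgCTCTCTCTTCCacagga
Rplp2: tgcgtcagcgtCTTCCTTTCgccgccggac

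Rps6 lies at chr4:86857353-86857382 on the minus strand, Rpl14 at chr9:120571502-120571531 on the plus strand, Rpl7l1 at chr17:46782642-46782671 on the minus strand and Rps3a1 at chr3:86142654-86142683 on the minus strand. The windows of Rpl35 (chr2:39005117-39005146), Rps10 (chr17:27635230-27635259) and Rps18 (chr17:33955651-33955680) are on the minus strand, and that of Rplp2 (chr7:141447636-141447665) is on the plus strand. Each spans the last bases before the gene and the first bases of its 5′ untranslated region. Among the 4 genes shown that differed, Rps6 and Rpl14 had a run and Rpl7l1 and Rps3a1 did not. Rpl8, which also differed between LA times, had no matching window. The 4 bright genes were picked for having a run, so the 2 sets cannot be compared. Rpl37a and Rps28, also bright, had no such run, and their log2 ranges were 0.06 and 0.10.

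Ribosomal protein genes sat at the top of the signal range. 38 of the 44 were among the brightest 10% of genes (1243), and 32 of the 112 genes with a mean intensity above 5000 were ribosomal protein genes. The 6 genes below 1000 were Rps6, Rpl7l1, Rps25, Rpl14, Rpl12 and Rpl27a. The highest deposited value of an array lay between 9984 and 13046, and the brightest of the 44 genes stood at 84.6 to 96.8% of it, with at most 4 of them above 90% on any array. Whether signals this high still follow the amount of mRNA in proportion was not tested. Probe sets differ in how well they bind, so this order is of probe signals and not of mRNA amounts.

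The differences between arrays were small in the bright probe sets after quantile normalisation, which gives every array the same distribution of values. The log2 range of a gene over the 11 arrays had a median of 0.16 for ribosomal protein genes and of 0.97 for all genes tested. Among the 32 genes above 5000 the median range was 0.13, against 0.30 for the 80 other genes above 5000, and among the 6 genes below 1000 it was 0.62. The smallest range belonged to Rpl37a, with values between 8430 and 8774, and the largest to Rpl27a, with values between 131 and 234. Most of the movement thus lay in the dim probe sets, as the heat map of all 44 genes shows.

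**Figure D1:**
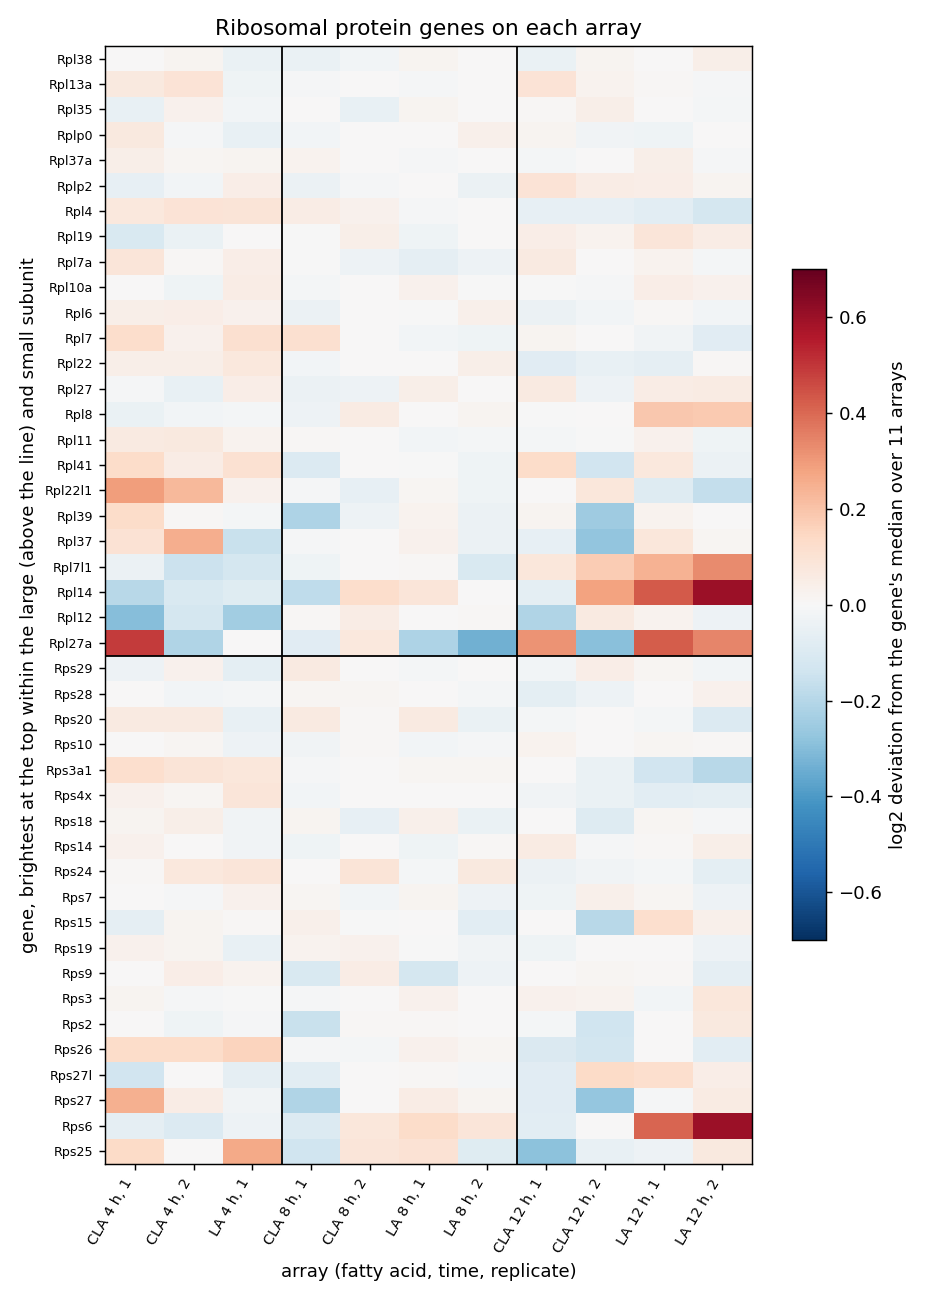
Heat map of the log2 deviation of each of the 44 ribosomal protein genes (rows, large subunit above the line, brightest at the top of each block) from its own median over the 11 arrays (columns, CLA left of LA at each time). Most bright rows are nearly white on all arrays. Rps6, Rpl14, Rpl7l1 and Rpl27a are red on both LA arrays at 12 h, and Rpl27a also on the first CLA arrays of 4 h and 12 h. The bright Rpl8 is faintly red and the bright Rps3a1 faintly blue on both LA arrays at 12 h.

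The level of the whole group relative to other genes depended on how the arrays were scaled. Ribosomal protein genes made up 5.17 and 4.88% of the summed deposited intensity of all genes on the CLA arrays against 4.59% on the LA array at 4 h. At 8 h their share was 4.04 and 4.68% on CLA arrays against 4.80 and 4.69% on LA arrays, and at 12 h it was 4.74 and 3.98% on CLA arrays against 5.02 and 5.07% on LA arrays. The share was lower on both CLA arrays than on both LA arrays at 8 h and at 12 h, and higher on both CLA arrays than on the LA array at 4 h. With 2 arrays against 2, an exact permutation test of such a share could not reach a p of 0.05. After quantile normalisation the median difference of the 44 genes between CLA and LA at 12 h was -0.02 on the log2 scale, with 18 of 44 above 0. With each array only scaled to the same median it was -0.39, with none of 44 above 0, and on the values as deposited it was 0.07, with 38 of 44 above 0. The median of all genes was -0.15, -0.17 and 0.28 in the same order. It lay below the median of the 44 genes after quantile normalisation, and above it under both other scalings. A shift common to all 44 genes can therefore not be read from these arrays, and the differences below are those after quantile normalisation unless another scaling is named.

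Between CLA and LA at 4 h, no ribosomal protein gene passed an adjusted p of 0.05 in limma (3 had an unadjusted p under 0.05), where 0.298% of all genes tested did. The median log2 difference was 0.01 for ribosomal protein genes and -0.02 for all genes. The 3 smallest p-values belonged to Rpl37, Rpl22l1 and Rpl13a. Rpl37, a small zinc-binding protein of the large subunit, had intensities of 2028 and 2258 on the CLA arrays and 1700 on the LA array, a log2 difference of 0.33 ± 0.10 (SE) with an adjusted p of 0.315. Rpl22l1, a close relative of Rpl22 that can take its place in the ribosome, had 3548 and 3393 on the CLA arrays and 2959 on the LA array, a log2 difference of 0.23 ± 0.07 with an adjusted p of 0.322. Rpl13a had 9839 and 10043 on the CLA arrays and 9194 on the LA array, a log2 difference of 0.11 ± 0.05 with an adjusted p of 0.509. The LA side rests on 1 array, so its spread was taken from the other groups.

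At 8 h no ribosomal protein gene passed the test and none had an unadjusted p under 0.05, and 0% of all genes tested passed. Rps27, a zinc finger protein of the small subunit, had the smallest p. Its intensities were 3078 and 3564 on CLA arrays and 3691 and 3610 on LA arrays, a log2 difference of -0.14 ± 0.09 with an adjusted p of 0.986. Rpl7 differed by 0.08 ± 0.05 and Rpl39 by -0.12 ± 0.09, both with an adjusted p of 0.986. The 95% interval of the difference stayed within 1.2-fold either way for 37 of the 44 genes at 8 h and for 34 at 4 h, against 10.7% and 4.00% of all genes tested. Such narrow intervals go with high signal: among genes above 5000 at 8 h, all 32 ribosomal protein genes met this bound, and so did 86.2% of the 80 other genes.

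At 12 h 3 of the 44 genes (6.82%) passed the test between CLA and LA, 2 lower and 1 higher in CLA, and 8 had an unadjusted p under 0.05. At this time 18.8% of all genes tested passed, and 27.5% of the genes in the brightest 10% that are not ribosomal protein genes. Above 5000 the count was 2 of 32 ribosomal protein genes (6.25%) and 12 of 80 other genes (15.0%). The median size of the difference, whatever its direction, was 0.04 for ribosomal protein genes and 0.31 for all genes on the log2 scale. The interval stayed within 1.2-fold for 32 of the 44 genes and for 4.60% of all genes. Counts at an unadjusted p, here and in the other comparisons, come without the share of all genes at that threshold. Whether those counts are high or low was not tested.

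Rps6 had the largest fall. It encodes the small subunit protein that S6 kinases phosphorylate downstream of mTORC1. Its intensities at 12 h were 420 and 442 on CLA arrays and 586 and 670 on LA arrays, so the groups did not overlap. The log2 difference was -0.54 ± 0.11 (adjusted p 0.00704), and it was -0.60 (adjusted p 0.0274) with median scaling and -0.15 (adjusted p 0.695) on the values as deposited. Without the second LA array of 12 h the difference was -0.44 with an adjusted p of 0.0718. Its intensities at 4 h were 423 and 414 on CLA arrays and 432 on the LA array, and at 8 h they were 414 and 468 on CLA arrays and 483 and 470 on LA arrays. The LA arrays of 12 h were thus the ones that stood apart for Rps6. Both also had the lowest median deposited intensities, 11.6 and 10.6, against 12.8 to 20.1 on the other arrays. After quantile normalisation the median log2 deviation of all genes from their means was 0.15 on both, against -0.08 to 0.03 on the others. What part this had in the calls was not tested.

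Rpl8, a large subunit protein near the catalytic centre, had 5142 and 5153 on CLA arrays at 12 h and 5863 and 5841 on LA arrays. The log2 difference was -0.19 ± 0.05 (adjusted p 0.0231), and the groups did not overlap. Under median scaling it was -0.51 (adjusted p 0.0564) and on the deposited values -0.05 (adjusted p 0.798), and the call was lost without any 1 of the 4 arrays of 12 h. Rpl8 read between 4984 and 5365 on the 7 arrays of the earlier times, below both LA arrays of 12 h.

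Rps3a1, a small subunit protein also found in initiation complexes, was the gene that was higher. Its intensities at 12 h were 8487 and 8232 on CLA arrays and 7741 and 7412 on LA arrays, a log2 difference of 0.14 ± 0.04 (adjusted p 0.0334). On the deposited values the difference was 0.19 (adjusted p 0.134), and with median scaling its sign turned, to -0.27 (adjusted p 0.301). The call was lost without either CLA array of 4 h or either LA array of 8 h (adjusted p 0.0553 to 0.0614), without the second LA array of 12 h (0.167) and without the first CLA array of 12 h (0.142). Relative to the median of the 44 genes Rps3a1 was higher by 0.16, and by 0.12 both with median scaling and on the deposited values. In the same order, Rps6 was lower than that median, at -0.51 and -0.21, and so was Rpl8, at -0.16 and -0.12. Median scaling multiplies each array by a constant. Relative to that median it therefore gives nearly the same difference as the deposited values by construction, and their match is not separate evidence.

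**Figure D2:**
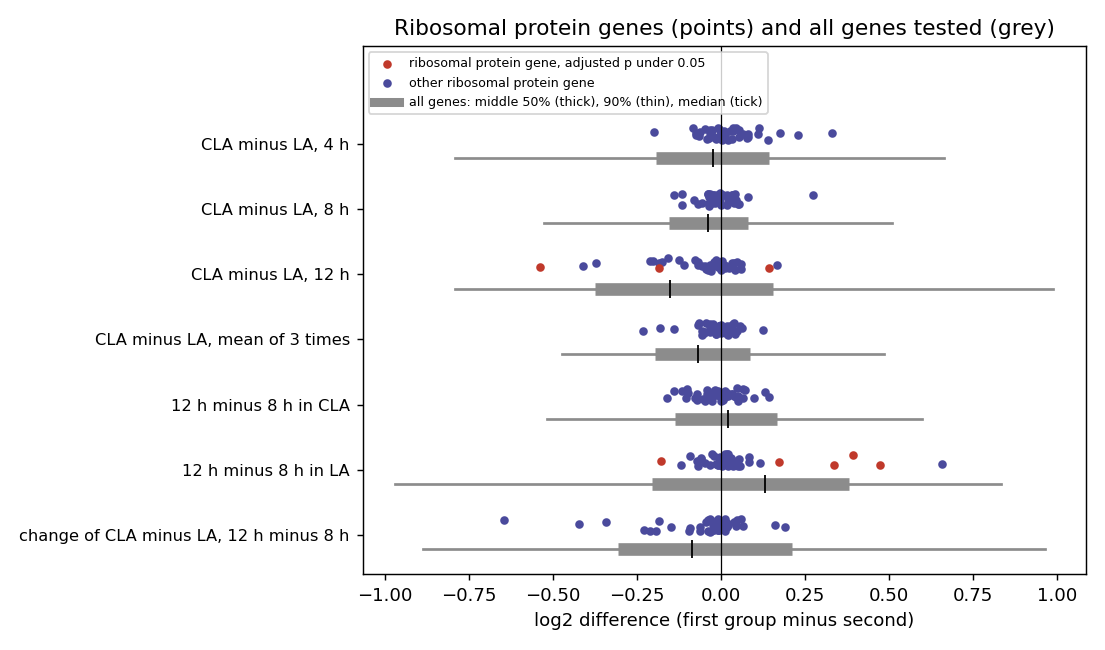
Log2 differences in 7 comparisons for the 44 ribosomal protein genes (points) and for all 12428 genes tested (grey, middle 50% thick and middle 90% thin, with the median as a tick). The points cluster at 0, and the called genes (red) appear only for CLA minus LA at 12 h and for 12 h minus 8 h in LA.

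Rpl22l1 and Rpl14 came next at 12 h without passing the test. Rpl22l1 had 2900 and 3063 on CLA arrays and 2724 and 2585 on LA arrays, a log2 difference of 0.17 ± 0.06 (adjusted p 0.0704). Rpl14 had 208 and 265 on CLA arrays and 294 and 332 on LA arrays, a log2 difference of -0.41 ± 0.15 (adjusted p 0.0777). Rps15, Rpl37 and Rps27 also had unadjusted p-values under 0.05, with differences of -0.18, -0.21 and -0.20. With median scaling 2 genes passed at 12 h, Rps6 and Rps15, the second at -0.55 (adjusted p 0.0432).

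Averaged over the 3 times, no ribosomal protein gene passed between CLA and LA (4 had an unadjusted p under 0.05), where 7.16% of all genes did. Rps6 was nearest, at -0.23 ± 0.07 with an adjusted p of 0.0558, followed by Rpl22l1 at 0.13 ± 0.04 with an adjusted p of 0.064. With a replicate block Rps6 passed, at an adjusted p of 0.0444, so 1 gene was called. The interval was within 1.2-fold for 40 of the 44 genes and for 22.7% of all genes.

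Between 12 h and 8 h in CLA, no ribosomal protein gene passed (3 had an unadjusted p under 0.05), where 0.402% of all genes did. The 3 were Rpl4, at -0.10 ± 0.04, the stalk protein Rplp2, at 0.10 ± 0.04, and Rps26, at -0.10 ± 0.05, with adjusted p-values of 0.409, 0.423 and 0.48. Rpl4 had intensities of 7934 on both CLA arrays at 12 h and of 8564 and 8430 at 8 h. The largest differences in either direction were -0.16 for Rpl37 and 0.14 for Rpl7l1.

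Between 12 h and 8 h in LA, 5 of the 44 genes (11.4%) passed, 4 higher and 1 lower at 12 h, where 22.3% of all genes did, and 7 had an unadjusted p under 0.05. Of the bright genes outside the group, 36.2% of those in the brightest 10% passed. Above 5000 the count was 2 of 32 ribosomal protein genes (6.25%) and 15 of 80 other genes (18.8%). Below 1000 the order was the reverse, with 3 of 6 ribosomal protein genes (50%) and 20.7% of the 10988 other genes. The median log2 difference of those other dim genes was 0.16. This comparison shares the LA arrays of 12 h with CLA against LA at 12 h, so the values of the same genes in both are not separate evidence.

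In LA, Rps6 had 586 and 670 at 12 h and 483 and 470 at 8 h, a log2 difference of 0.39 ± 0.11 (adjusted p 0.0232). Rpl14, a large subunit protein, had 294 and 332 at 12 h and 231 and 218 at 8 h, a log2 difference of 0.47 ± 0.15 (adjusted p 0.0447). Rpl7l1, a relative of Rpl7 that works in ribosome assembly, had 824 and 875 at 12 h and 700 and 646 at 8 h, a log2 difference of 0.34 ± 0.09 (adjusted p 0.0234). These 3 genes have dim probe sets, and the LA arrays of 12 h lay above those of 8 h with no overlap.

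Rpl8 had 5863 and 5841 in LA at 12 h and 5165 and 5223 at 8 h, a log2 difference of 0.17 ± 0.05 (adjusted p 0.0267). Rps3a1 had 7741 and 7412 at 12 h and 8584 and 8564 at 8 h, a log2 difference of -0.18 ± 0.04 (adjusted p 0.0108). With median scaling none of the 5 passed: Rps6 stood at 0.45, Rpl14 at 0.47, Rpl7l1 at 0.41 and Rpl8 at 0.35 (adjusted p 0.0791 to 0.159), and Rps3a1 at 0.01 (0.978). On the deposited values Rps3a1 alone passed, at -0.34, while Rps6 stood at 0.11, Rpl14 at 0.13, Rpl7l1 at 0.06 and Rpl8 at 0.01 (adjusted p 0.818 to 0.985). Without either LA array of 8 h, or without the second LA array of 12 h, none of the 44 genes passed, and without the first LA array of 12 h 2 did. Rpl27a had the largest difference, with 224 and 211 at 12 h and 143 and 131 at 8 h, but its log2 difference of 0.66 ± 0.23 did not pass (adjusted p 0.0627).

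**Figure D3:**
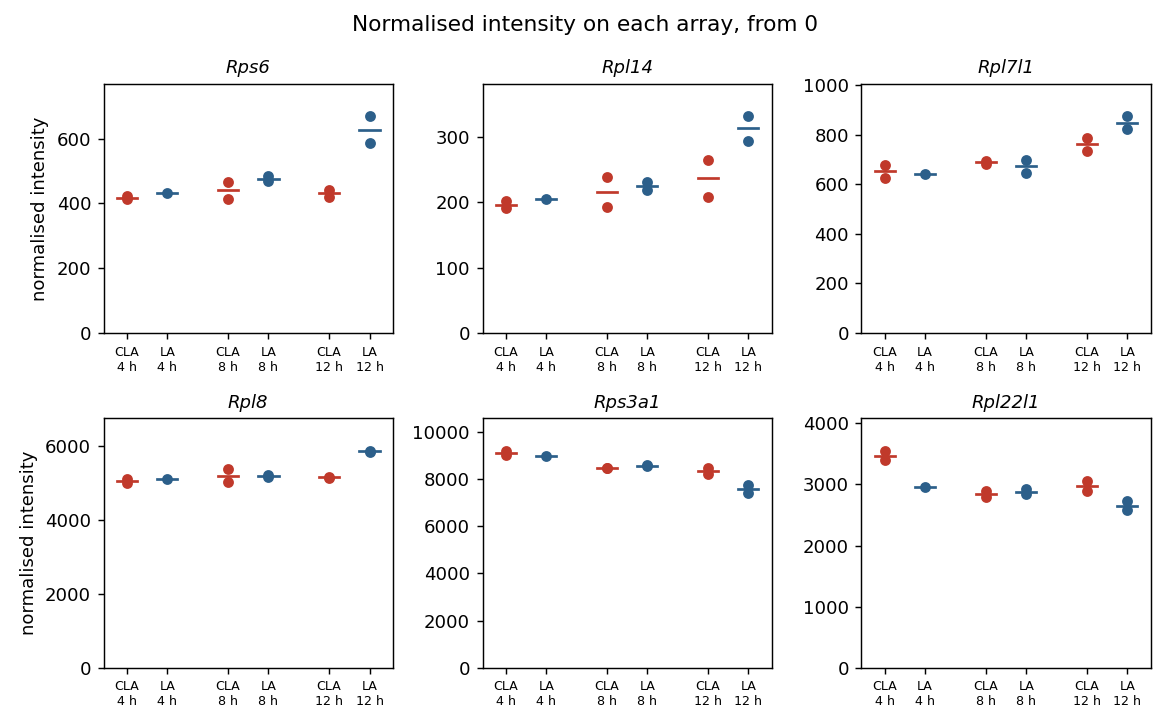
Normalised intensity of 6 ribosomal protein genes on each array (points, with the group mean as a bar, CLA left of LA at each time, axes from 0). In Rps6, Rpl14, Rpl7l1 and Rpl8 the LA arrays of 12 h are the highest of all groups, and in Rps3a1 and Rpl22l1 they are the lowest.

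The test of the change itself, CLA minus LA at 12 h less the same at 8 h, passed for none of the 44 genes (5 had an unadjusted p under 0.05) and for 1.17% of all genes. Rps6 had the smallest p, with a log2 change of -0.42 ± 0.15 and an adjusted p of 0.217. Rps3a1 changed by 0.16 ± 0.06 (adjusted p 0.22) and Rpl8 by -0.18 ± 0.07 (adjusted p 0.23). A different response to CLA at 12 h than at 8 h was therefore not shown for any of these genes.

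The ribosomal stalk, which recruits elongation factors, was represented by Rplp0 and Rplp2, and Rplp1 was not measured on a probe set of its own. Rplp0 had 9138 and 8874 on CLA arrays at 12 h and 8843 and 9019 on LA arrays, a log2 difference of 0.01 ± 0.04 (adjusted p 0.86). Rplp2 had 8843 and 8584 on CLA arrays and 8534 and 8401 on LA arrays, a difference of 0.04 ± 0.04 (adjusted p 0.494). The arrays of CLA and LA overlapped in Rplp0, and in Rplp2 both CLA arrays lay above both LA arrays.

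Several members have roles beyond peptide synthesis. Rpl11 binds the p53 regulator MDM2 when ribosome assembly is disturbed, and its difference at 12 h was -0.01 ± 0.04, with 5091 and 5132 on CLA arrays and 5247 and 5041 on LA arrays. Rps19, mutated in the human disorder Diamond-Blackfan anaemia, had 5959 and 6080 on CLA arrays and 6101 and 5926 on LA arrays. Rpl38, linked to translation of homeobox mRNAs in mouse embryos, had 9932 and 10376 on CLA arrays and 10243 and 10541 on LA arrays. Rps3, which also acts in DNA repair, had 5817 and 5778 on CLA arrays and 5606 and 6000 on LA arrays. The arrays of CLA and LA at 12 h overlapped in each of these 4 genes. None of the 4 passed the test in any of the 7 comparisons. Rps25, needed by some viral RNAs for cap-independent initiation, had 295 and 347 on CLA arrays and 351 and 377 on LA arrays, a difference of -0.18 ± 0.13 (adjusted p 0.325).

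Paralogs, in which a second gene encodes a related protein, were both measured for 3 pairs. At 12 h Rps27 differed by -0.20 ± 0.09 and Rps27l by -0.06 ± 0.08 between CLA and LA. Rpl22 differed by -0.04 ± 0.04 and Rpl22l1 by 0.17 ± 0.06, and Rpl7 differed by 0.06 ± 0.05 and Rpl7l1 by -0.16 ± 0.09. None of these 6 values passed the test, and the difference within a pair was not tested. Rpl39 differed by -0.13 ± 0.09 while Rpl39l was below the filter. Rps4l and Rpl3l were also below it, and 29 further ribosomal protein genes, among them Rpl3, Rpl5, Rpl10, Rpl36a and Rplp1, were present only on probe sets that match other genes as well.

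The shared probe sets are described without naming a gene. 107 of the 110 passed the filter, with a median intensity of 6216. At 12 h 12 of them passed between CLA and LA, 4 higher and 8 lower in CLA, and between 12 h and 8 h in LA 9 passed, 1 higher and 8 lower at 12 h. Over all 26629 probe sets tested, 14.4% and 16.2% passed in those comparisons.

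For 21 of the 44 genes more than 1 probe set passed the filter, 93 in all. Among the 55 probe sets above 5000, the differences between CLA and LA at 12 h lay between -0.19 and 0.18, with a median size of 0.04. Among the 19 from 1000 to 5000 they lay between -0.27 and 0.18, with a median of -0.16, and 2 passed over all probe sets. Both were of Rpl27, a large subunit protein: its probe set at a mean of 5851 differed by -0.04 (adjusted p 0.6), those at 3864 and 2768 by -0.20 and -0.27 (adjusted p 0.0325 and 0.0293). Between 12 h and 8 h in LA the same 3 probe sets differed by 0.03, 0.18 and 0.24, with adjusted p-values of 0.652, 0.0455 and 0.0416. The brightest probe set of Rpl27 thus did not pass where the dimmer ones did. In the LA comparison this also held for Rpl13a and Rps20. The Rpl13a probe set at 1723 differed by 0.33 (adjusted p 0.0211) and its brightest by 0.01. The Rps20 probe set at 60.2 differed by -0.73 (adjusted p 0.0224) and its brightest by -0.06. Among the 11 from 100 to 1000 the differences between CLA and LA at 12 h lay between -0.68 and 0.80, with a median size of 0.20. For Rps3 the probe set at a mean of 5738 differed by 0.00 and that at 307 by -0.68 (adjusted p 0.0214 over all probe sets). For Rps24 the probe set at 7341 differed by 0.01 and that at 162 by 0.80 (adjusted p 0.0657). The second probe set of Rps6, at a mean of 25.5, differed by 0.15 (adjusted p 0.793) against -0.54 for the first, so the call for Rps6 rests on 1 probe set.

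**Figure D4:**
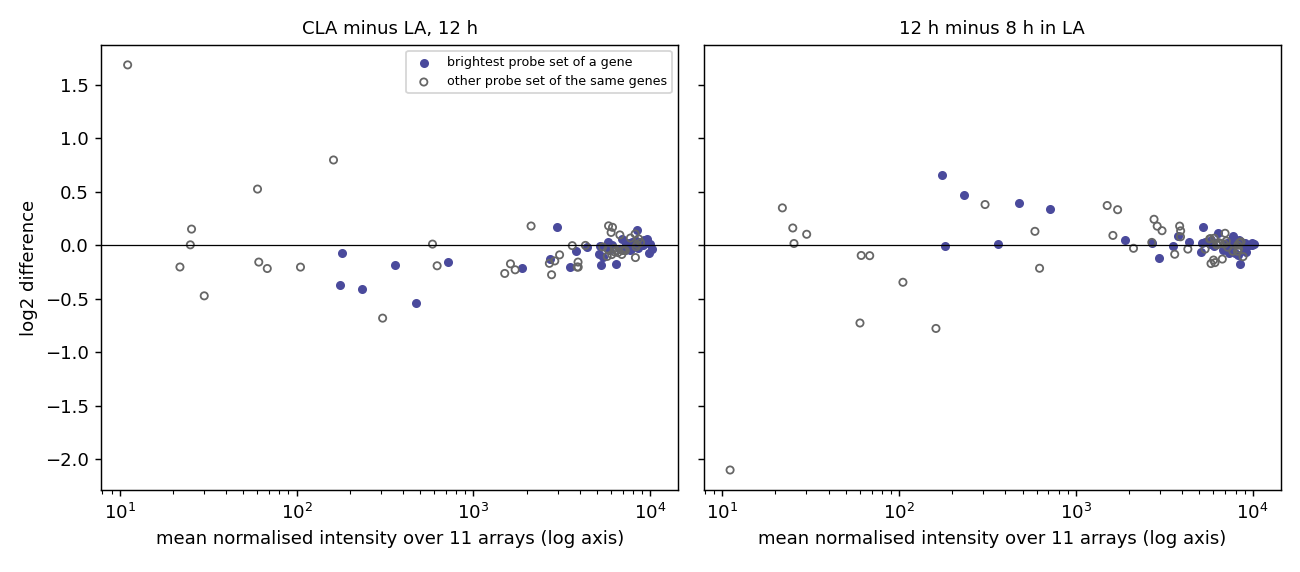
Log2 difference of the 93 probe sets of the 44 genes against their mean normalised intensity (log axis), for CLA minus LA at 12 h and for 12 h minus 8 h in LA. Filled points are the brightest probe set of a gene, and open points are the other probe sets of those genes. The spread of the differences is wide at low signal and narrow above 5000.

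Genes that work with the ribosome were set beside its protein genes at 12 h. Of 32 translation initiation factors, 17 passed between CLA and LA, 10 higher and 7 lower in CLA, and of 53 ribosome biogenesis factors 15 passed, 8 higher and 7 lower. Among 19 other mRNAs that carry a terminal oligopyrimidine tract, 8 passed, 6 higher and 2 lower, and among 9 chaperones of ribosomal proteins and nascent chain factors 5 passed, 3 higher and 2 lower. Of 13 elongation and release factors 4 passed, of 17 genes of RNA polymerase I 5, and of 22 genes of mTORC1, S6 kinase, LARP1 and MYC 3. The 2 ribosomal protein genes outside the naming pattern, Rpsa and Fau, did not pass, at -0.09 and -0.02. The counts are read against 18.8% of all genes, and some genes stand on 2 lists. Their directions moved with the scaling: of the initiation factors 5 were higher and 4 lower with median scaling, and 10 higher and 0 lower on the deposited values, and of the biogenesis factors 8 higher and 4 lower, and 12 higher and 0 lower.

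Eif3a, the largest subunit of initiation factor 3, was higher in CLA at 12 h by 0.99 ± 0.14 on the log2 scale (adjusted p 0.00146). Eif2s2, the beta subunit of initiation factor 2, was higher by 1.28 ± 0.20 (adjusted p 0.00202), and Abce1, which splits ribosomes for reuse, by 1.14 ± 0.18 (adjusted p 0.00208). The nucleolar proteins Ncl, Npm1 and Nop58, which act in ribosome assembly, were higher by 1.06 ± 0.09, 1.10 ± 0.19 and 1.34 ± 0.23 (adjusted p 6.3e-04, 0.00392 and 0.00395). Larp4, a binder of poly(A) tails, was higher by 1.43 ± 0.14 (adjusted p 6.3e-04). In the other direction, the biogenesis factors Nop56 and Mybbp1a differed by -0.47 ± 0.09 and -0.43 ± 0.09 (adjusted p 0.00612 and 0.00796), and the ribosome rescue factor Pelo by -0.74 ± 0.17 (adjusted p 0.0169). All 10 genes kept the sign of their difference with median scaling and on the deposited values. On the deposited values Nop56, Mybbp1a and Pelo stood at -0.16, -0.17 and -0.21 and were no longer called. Other called genes of these lists did not keep their sign. Naca, a nascent chain factor, went from 0.30 (adjusted p 0.0117) to -0.02 with median scaling. Polr1a, of RNA polymerase I, went from -0.40 (adjusted p 0.0481) to 0.11 on the deposited values.

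Mitochondrial ribosomal proteins, which build the separate ribosome inside mitochondria, gave 13 of 76 genes (17.1%) that passed at 12 h, all lower in CLA, against 18.8% of all genes. Between 12 h and 8 h in LA 27 of the 76 (35.5%) passed, all higher at 12 h, against 22.3% of all genes. Mrpl44 and Mrpl15 differed by -0.60 ± 0.13 and -0.43 ± 0.10 between CLA and LA (adjusted p 0.00978 and 0.0133), and by 0.39 ± 0.13 and 0.60 ± 0.10 between 12 h and 8 h in LA (adjusted p 0.0489 and 0.00203). The direction of the list depended on the scaling in both comparisons. With median scaling 1 was higher and 3 were lower in CLA at 12 h, and 12 were higher and 0 lower in the LA time comparison. On the deposited values 6 passed at 12 h, all higher in CLA, and 1 passed in the LA time comparison, lower at 12 h. Over all genes the calls at 12 h were 50.4% higher in CLA after quantile normalisation, 72.3% with median scaling and 99.5% on the deposited values.

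**Figure D5:**
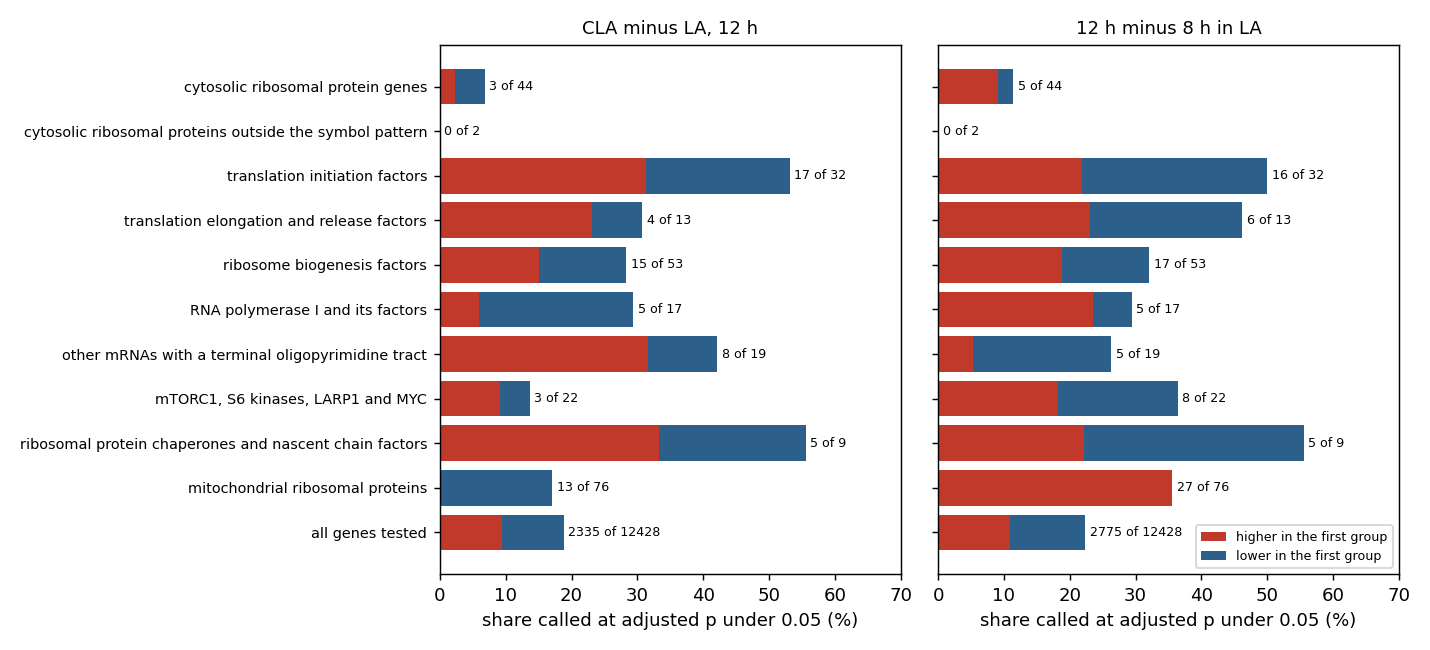
Share of each gene list that passed an adjusted p of 0.05, for CLA minus LA at 12 h and for 12 h minus 8 h in LA (red higher and blue lower in the group named first, with the count beside each bar). The cytosolic ribosomal protein genes have 3 of 44 and 5 of 44, against 2335 and 2775 of all 12428 genes.

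The authors' deposited tables combine the arrays of a group at each time into a ratio, taken here as CLA over LA from its positive correlation with the differences above. In the authors' deposited table for 12 h, with p-values adjusted over the same genes, 5 of the 44 genes passed, where 21% of all genes did, and in those for 4 h and 8 h none did, where 0.901% and 0.121% of all genes did. The authors' deposited table gave Rps6 a ratio of 0.787 and Rpl8 a ratio of 0.881 at 12 h. It also gave Rpl14 0.788, Rpl7l1 0.87 and Rpl22l1 1.13, which had not passed in the limma fit, while Rps3a1 was not among the 5 genes.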

How the data were processed

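The authors deposited a linear intensity for 45101 probe sets on each array, and no source used here names the software for these values. Their tables, 1 per time, are titled as processed with Rosetta Resolver. Per the file headers, these tables give a ratio of the fatty acids with its log10 and p-value. Together they carry 6 further intensity columns that were not used. Genes were named through the platform annotation: 34945 probe sets carry 1 symbol, 932 several and 9160 none.

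Intensities were quantile normalised, raised to at least 0, offset by 1.84 (the 25th percentile) and taken to log2, in R 4.3.3 with limma 3.58.1. Genes needed a mean above 7.81, the 40th percentile. A mean for each of the 6 groups was fitted over the 11 arrays (5 residual degrees of freedom, 6.10 prior), with an intensity trend. P-values were two-sided and Benjamini-Hochberg adjusted over 12428 genes. The number of arrays limits the precision. The fit was tested on simulated data.

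The members and lists were chosen with earlier results of these data known. Genes named are, per comparison, up to 6 called each way (with fewer than 3 called, the 3 smallest p), a fixed set (stalk, signalling and paralog members), and up to 3 per list. Further genes with an unadjusted p under 0.05, the range extremes and Rps28 as a steady gene were named after their values were seen. So were the probe set examples (Rps3, Rps24, Rps6, Rpl27, Rpl13a, Rps20). The design text plans 4 arrays per time, and 11 arrays were analysed here. Replicate numbers gave no sign of a pairing of arrays: correlations of replicate differences between groups lay between -0.042 and 0.074. With so few replicates these values cannot show that the cultures were unpaired. CLA and LA at 4 h could not be checked, with 1 LA array.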

Additional observations from a re-analysis of the deposited data

How the results depend on the processing

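The counts of called ribosomal protein genes at 4 h, at 8 h, between 12 h and 8 h in CLA and for the change of the difference stayed at 0 under all alternatives run. For CLA minus LA at 12 h the count of 3 became 2 with median scaling (Rps6 and Rps15, with Rpl8 and Rps3a1 no longer called), 0 on the values as deposited, 1 without a filter on mean intensity, 1 without an intensity trend, 1 with only the arrays of the comparison and 5 in the authors' deposited tables. For 12 h minus 8 h in LA the count of 5 became 0 with median scaling, 1 on the values as deposited, 2 without the filter and 0 without the trend. With a replicate block the counts were 3 at 12 h, 6 in LA and 1 for the mean of 3 times. Leaving out each array in turn gave 0 to 4 at 12 h, with 0 without the second LA array of 12 h. It gave 0 to 6 between 12 h and 8 h in LA, and 0 to 2 for the mean of 3 times, with 2 without the second CLA array of 8 h. Rps3a1 turned its sign under median scaling, to -0.27 between CLA and LA at 12 h and 0.0095 between 12 h and 8 h in LA. Rps6 at 12 h kept its direction in 22 alternatives and its call in 19, losing it on the deposited values, with the mean of its probe sets (-0.19, adjusted p 0.473) and without the second LA array of 12 h. The cause of these changes was not tested. Low signal limits Rpl27a, Rpl12 and Rpl14, whose intervals were wide.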
